A study of Mus musculus with 6 samples.

Results

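The retinal pigment epithelium (RPE) is a single sheet of pigmented cells between the photoreceptors and the choroid, the vascular layer that feeds the outer retina. Described here are 9 genes of its cell-cell junctions, taken by symbol from a table of 33924 genes: Tjp1, Ocln, Marveld2, Cldn1, Cldn2, Cldn10, Cldn19, Cdh1 and Cdh3. All 9 were found in the table. The tissue was RPE scraped together with choroid from C57BL/6J mice, an inbred wild-type strain, with no transgene and no treatment, and the labels describe every mouse as male. There were 3 young mice, labelled 1 to 2 months old, and 3 aged mice, labelled 20 to 24 months old in their titles and 22 to 24 months old in their age field. The study's methods describe mice of both sexes and a somewhat older young group, so sex and age are given here as the labels state them. Both eyes of a mouse made 1 sample, and its RNA was depleted of ribosomal RNA, enriched for poly(A) transcripts and sequenced.

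The study was designed to compare young with aged RPE/choroid. The measurement used here is 1 value per gene, the mean normalized count that the authors averaged over all 6 libraries, young and aged. The other numeric columns of the table hold the authors' own comparison of the ages and were not used. No change with age is therefore given for any junction gene, and the values below describe how abundant each transcript was in RPE/choroid of both ages together. They carry no SD, because single libraries cannot be seen in a mean, and whether neighbors in an order of levels differ beyond the spread between mice could not be tested.

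Tight junctions seal the space between neighboring epithelial cells, and in the RPE they form the outer blood-retinal barrier, which separates the retina from the leaky choroidal capillaries. Their strands are built of claudins, membrane proteins that either close the gap or leave it selectively permeable to small ions, together with occludin and tricellulin. Scaffold proteins such as ZO-1 tie the strands to actin. Adherens junctions lie beside them and join cells through cadherins, whose cytoplasmic tails bind catenins.

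The 4 claudins were first compared by sequence, since their levels can be compared only if reads of one are not taken for another. Claudins share a signature in the first extracellular loop, in which a leucine and a tryptophan are followed by 2 cysteines. The 48 coding bases that span it are given 5′ to 3′ on the sense strand, from the GENCODE M21 transcripts of GRCm38, with the codons for leucine, tryptophan and both cysteines in capitals. They lie at chr16:26371435-26371482 on the minus strand for Cldn1, chrX:139808852-139808899 on the plus strand for Cldn2, chr14:118855131-118855178 on the plus strand for Cldn10 and chr4:119255717-119255764 on the plus strand for Cldn19, each within 1 coding exon.
Cldn1: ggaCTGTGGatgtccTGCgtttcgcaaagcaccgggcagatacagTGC
Cldn2: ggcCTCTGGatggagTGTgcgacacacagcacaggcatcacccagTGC
Cldn10: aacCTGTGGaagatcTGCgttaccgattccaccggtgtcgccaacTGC
Cldn19: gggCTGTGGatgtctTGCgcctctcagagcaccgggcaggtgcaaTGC

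Of these 48 bases 21 were the same in all 4 genes, and 2 of the 16 codons were. Cldn1 and Cldn19 were the closest pair, with 39 of 48 bases in common, and Cldn10 and Cldn19 the most distant, with 25. Over the whole coding sequence, aligned end to end, Cldn1 and Cldn19 matched at 57.9% of positions and Cldn2 and Cldn10 at 48.0%. The longest run of identical coding bases between any pair of the 4 was 15, for Cldn1 and Cldn19. Cdh1 and Cdh3 matched at 58.9% of aligned coding positions with a longest run of 16, and Ocln and Marveld2 at 43.3% with a longest run of 12. For each of the 9 genes, none of its words of 50 bases occurred in the sense sequence of an annotated transcript of another gene. Reverse complements, which would match antisense transcripts, were not searched.

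Cldn10 needs a further distinction that a value per gene cannot make. It encodes forms of claudin-10 that start from alternative first exons and are known to favor different ions. The first 60 coding bases of both starts are shown with the start codon in capitals, at chr14:118788157-118788216 for the upstream start and at chr14:118854990-118855049 for the downstream start, both on the plus strand.
Cldn10, upstream start: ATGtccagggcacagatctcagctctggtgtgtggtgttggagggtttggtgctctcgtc
Cldn10, downstream start: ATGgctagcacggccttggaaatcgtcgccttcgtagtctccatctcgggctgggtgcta

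After first coding exons of 214 and 220 coding bases, the longest coding transcripts from the 2 starts shared their last 474 coding bases. Another, shorter coding transcript from the upstream start shared its last 121 coding bases with the form of the downstream start. The claudin signature printed for Cldn10 belongs to the form with the downstream start. Which form made up the level of Cldn10 was not analysed here.

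Levels are given below as the mean normalized count and, for comparing genes, as that mean divided by the length of the longest annotated transcript in kilobases, termed the level per kilobase. The division assumes that the deposited values were not already divided by length, which could not be tested. Among the 9 genes Cldn1 was the most abundant on both scales, and Cldn19 and Marveld2 were the least abundant on both. The other 6 genes, Cdh1, Cldn2, Tjp1, Cdh3, Cldn10 and Ocln, lay within a 1.92-fold range per kilobase with the longest transcript, 1.94-fold with the union of exons, 2.94-fold with the mean length of coding transcripts and 3.68-fold with the longest coding sequence. Together the 9 genes took 435 of every 1000000 mean normalized counts of the table. The median gene among those whose mean was at least 10 stood at 214 per kilobase, and 7 of the 9 junction genes were above it and 2 below. Cldn19 was placed below it with the longer of its coding transcripts, and the length of the shorter was not used.

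**Figure D1:**
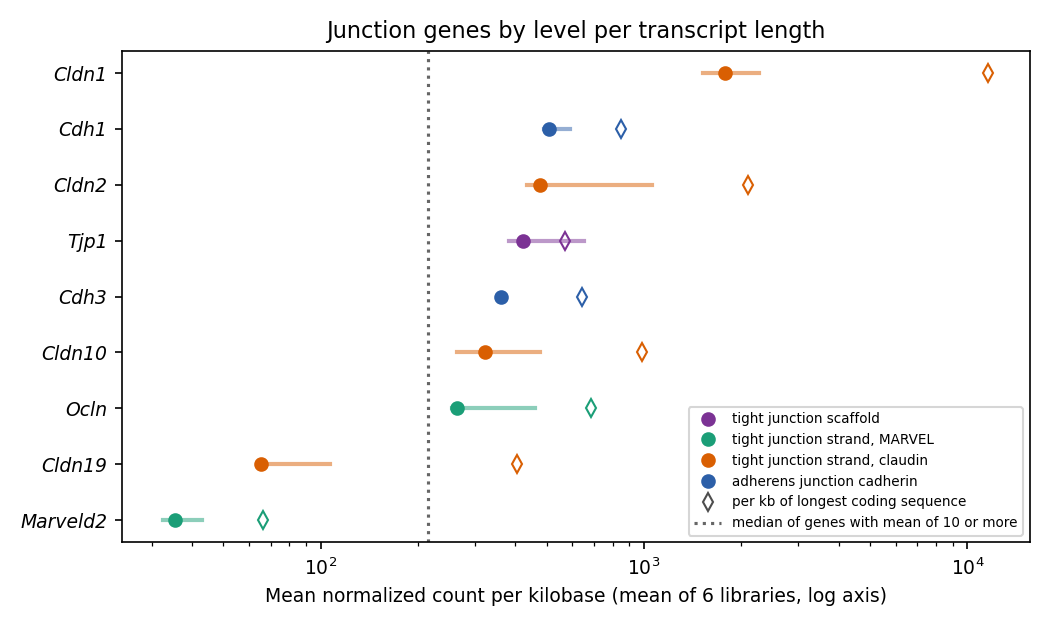
Mean normalized count per kilobase of the 9 junction genes averaged over the 6 libraries, on a log axis. Filled points divide by the longest transcript, horizontal bars span 3 ways of taking the transcript length, open diamonds divide by the longest coding sequence, and the dotted line is the median of all genes with a mean of at least 10. Cldn1 stands highest at 1775, Cldn19 and Marveld2 lie left of the line at 65.3 and 35.4, and the other 6 genes crowd between 264 and 508.

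Tjp1 encodes ZO-1, the scaffold protein under the tight junction strands. In GRCm38 the gene (ENSMUSG00000030516) spans 65296165 to 65527781 of chromosome 7, minus strand. Its mean normalized count was 2979, the second highest of the 9. Its longest transcript, of 7049 bases, is the longest of the group, and per kilobase it stood at 423, rank 4 of the 9 and above 65.3% of the 17951 genes with a mean of at least 10 and a known length. Per kilobase Tjp1 was 4.12 times as abundant as its paralog Tjp3 (ZO-3), at 103.

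Occludin and tricellulin are related proteins with 4 membrane spans. Ocln (ENSMUSG00000021638) spans 100496507 to 100552718 of chromosome 13, minus strand. It averaged 1071 normalized counts and stood at 264 per kilobase, rank 7 of the 9 genes and above 54.7% of genes. Marveld2 (ENSMUSG00000021636), which encodes tricellulin, the protein that seals the points where 3 cells meet, lies 43.2 kilobases away on the same strand, from 100595957 to 100616971, with no protein-coding gene between them. Its mean normalized count was 110 and its level 35.4 per kilobase, above 19.2% of genes and the lowest of the group. Although they are neighbors, Ocln was 7.48 times as abundant as Marveld2 per kilobase, and between 7.48 and 10.7 times over the 4 ways of taking the length.

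Tricellulin is held at these corners by the angulins Lsr, Ildr1 and Ildr2. Lsr averaged 142 normalized counts and Ildr1 111, against 110 for Marveld2. Ildr2 stood apart from them with 4237. Per kilobase Ildr2 was 14.5 times as abundant as Marveld2, with a range of 14.5 to 32.8 over the 4 lengths. It was 7.83 times as abundant as Lsr, with a range of 7.83 to 26.8, and 14.1 times as abundant as Ildr1, with a range of 14.1 to 37.1. Among genes with like symbols, Marveld3 stood at 30.3 per kilobase, near Marveld2, and Marveld1 at 462.

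Cldn1 (ENSMUSG00000022512) encodes a barrier-forming claudin best known from the skin. It spans 26356642 to 26371841 of chromosome 16, minus strand. With a mean normalized count of 7356 and a level of 1775 per kilobase it was above 89.3% of genes. The longest transcript of Cldn1, of 4145 bases, is annotated as a retained intron, and its only coding transcript is 3247 bases long. Cldn1 was first of the 9 genes under each of the 4 lengths, 3.49 times above the next gene with the longest transcript, 2.14 times with the mean length of coding transcripts, 3.09 times with the union of exons and 5.55 times with the longest coding sequence.

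Cldn2 (ENSMUSG00000047230) encodes a claudin that lets small cations and water pass. It spans 139800828 to 139811386 of chromosome X, plus strand. Its mean normalized count was 1446 and its level 475 per kilobase, rank 3 of the 9 genes and above 67.8% of genes. Cldn10 (ENSMUSG00000022132) spans 118787908 to 118875489 of chromosome 14, plus strand. It averaged 683 normalized counts and stood at 321 per kilobase, rank 6 of the 9 and above 59.1% of genes. The ion-selective Cldn2 and Cldn10 thus differed by 1.48 times per kilobase with the longest transcript, and by up to 2.23 times with the other lengths.

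Cldn19 (ENSMUSG00000066058), a claudin of the kidney tubule and the RPE whose loss in people joins kidney magnesium wasting to eye defects, spans 119255414 to 119262438 of chromosome 4, plus strand. Its mean normalized count was 272 and its level 65.3 per kilobase, above 27.8% of genes. Its 2 coding transcripts are 924 and 4168 bases long, so its level per kilobase moves with the transcript taken. It was 107 with their mean length and 405 with the longest coding sequence, which lies in the shorter transcript. The level of 65.3 divides by the longer transcript, and none of the 4 lengths is that of the shorter transcript alone. Per kilobase Cldn1 was 27.2 times as abundant as Cldn19, with a range of 21.2 to 28.7 times over the 4 lengths. The order of the 4 claudins was Cldn1, Cldn2, Cldn10, Cldn19 under each of the 4 lengths. An antisense gene, Gm12927, overlaps the first 1562 bases of Cldn19 on the opposite strand and averaged 3.01 normalized counts. Whether the counting used the strand is not given in the sources used here.

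The table holds 27 claudin genes by symbol, of which 17 averaged at least 10 normalized counts, 6 were above 0 and under 10, and 4 were listed at 0. Cldn5, the claudin of blood vessel endothelium, led the family with 4872 per kilobase, and Cldn1 came next. Cldn1 had 0.364 times the level of Cldn5 with the longest transcript and 1.10 times with the longest coding sequence, so the order of these 2 rests on the length taken. Then came Cldn12 with 1005 per kilobase, Cldn2, Cldn11, a claudin of myelin and of the Sertoli cell barrier, with 434, and Cldn10. Cldn19 had rank 12 with the longest transcript. The 4 claudins of the group made up 26.2% of the summed claudin level per kilobase, and Cldn1 alone made up 17.7%, while Cldn5 made up 48.5%. With the longest coding sequence in place of the longest transcript these shares were 44.1% for the 4 claudins and 33.9% for Cldn1.

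Between Cldn10 and Cldn19 lay Cldn22 (256 per kilobase), Cldn7 (237), Cldn4 (223), Cldn23 (156) and Cldn24 (135). With the longest coding sequence Cldn19, at 405, stood above Cldn22 (385), Cldn23 (325) and Cldn24 (136). Cldn7 (500) and Cldn4 (643) stayed above it. Cldn3 (39.6), Cldn20 (16.0), Cldn15 (11.9) and Cldn8 (5.94) were below Cldn19. Cldn25, with a mean normalized count of 841, had no annotated length and was left out of these orders. The claudins Cldn6, Cldn16, Cldn18 and Cldn21 were listed at 0, among them Cldn16, the nearest coding gene to Cldn1, at a distance of 91.3 kilobases.

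**Figure D2:**
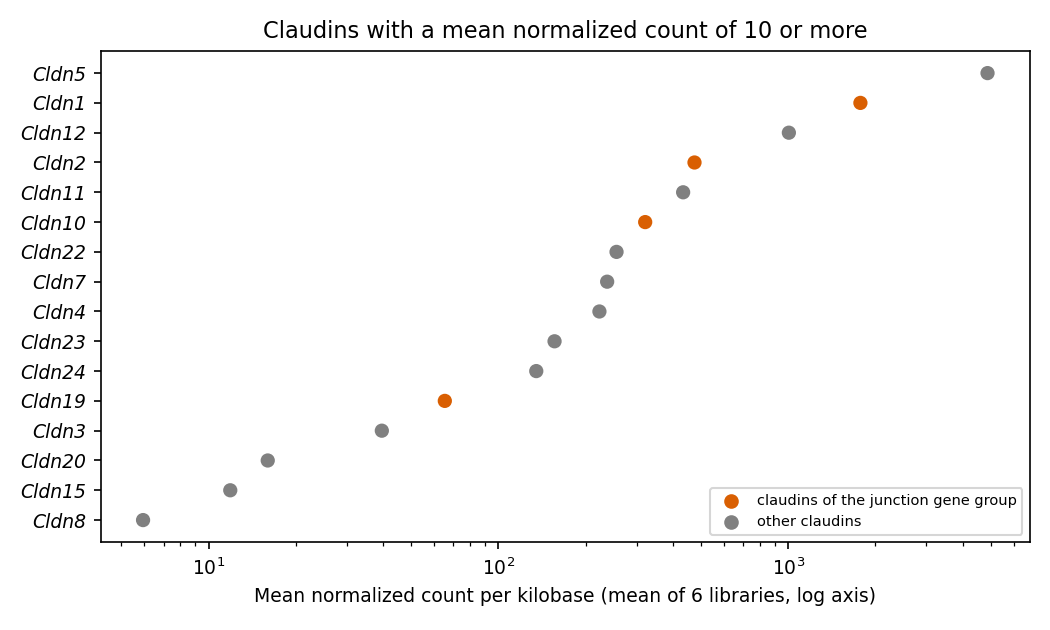
Claudin genes that averaged at least 10 and had a known length, by mean normalized count per kilobase averaged over the 6 libraries, on a log axis. The claudins of the junction gene group are orange and the others gray. With the longest transcript Cldn5 leads at 4872, Cldn1 is next at 1775, and Cldn19 lies at 65.3.

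The classical cadherins E-cadherin and P-cadherin are encoded by Cdh1 and Cdh3, which lie in the same orientation on the plus strand of chromosome 8, 46.1 kilobases apart. Cdh3 (ENSMUSG00000061048) spans 106510891 to 106557297 and Cdh1 (ENSMUSG00000000303) spans 106603351 to 106670246. Cdh1 averaged 2250 normalized counts and stood at 508 per kilobase, rank 2 of the 9 genes and above 69.2% of genes. Cdh3 averaged 1582 normalized counts and stood at 361 per kilobase, rank 5 of the 9 and above 61.8% of genes. Per kilobase Cdh1 was 1.41 times as abundant as Cdh3, and between 1.32 and 1.63 times over the 4 lengths.

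Both cadherins were above N-cadherin, Cdh2, which averaged 975 normalized counts and stood at 201 per kilobase. Cdh1 was 2.52 times as abundant as Cdh2 per kilobase, with a range of 2.36 to 4.07 over the 4 lengths, and Cdh3 1.79 times, with a range of 1.60 to 2.98. VE-cadherin, Cdh5, the cadherin of endothelium, stood at 179 per kilobase. Catenins bind the cadherin tails. β-catenin, Ctnnb1, which also acts in Wnt signaling, was 27.0 times as abundant as Cdh1 per kilobase, with a level of 13687 per kilobase and a range of 19.4 to 57.4 times over the 4 lengths. α-catenin, Ctnna1, which links the complex to actin, stood at 3792. Plakoglobin, Jup, stood at 519, and p120-catenin, Ctnnd1, which steadies cadherins at the membrane, at 367. The cadherins stood at 508 for Cdh1 and 361 for Cdh3. With the union of exons Jup stood at 258 and Ctnnd1 at 319, against 492 for Cdh1 and 361 for Cdh3. The other α-catenin genes were lower, with 114 for Ctnna2 and 9.78 for Ctnna3.

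A wider list of 80 junction and polarity genes was set beside the 9, and all 80 were found in the table. Of these, 69 averaged 10 or more normalized counts, namely 21 of 21 genes of the tight junction plaque and membrane, 17 of 17 adherens junction genes, 18 of 18 polarity genes and 13 of 24 other genes with claudin symbols. Their median levels per kilobase were 513, 275, 330 and 190, against 361 for the 9 junction genes. With the longest transcript Cldn1 was exceeded by 5 of the 68 wider genes with a length, which were Ctnnb1, Ctnna1, Cldn5, Ybx3 and Jam3. With the longest coding sequence Ctnnb1 (21165) stayed above Cldn1 (11621). Cldn5 (10549), Jam3 (6774), Ybx3 (5984) and Ctnna1 (5208) were then below Cldn1. With the longest transcript Marveld2 was above 5 of the 68 wider genes, which were Ctnna3, Cldn20, Cldn15, Cldn8 and Marveld3.

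In the tight junction plaque and membrane class the most abundant genes per kilobase were Ybx3, listed under its older symbol Csda, a DNA-binding protein that also binds ZO-1 (3497), Jam3, an immunoglobulin-type adhesion protein (3244), Esam, an adhesion protein of endothelium (1364), Cgnl1, which encodes paracingulin (1029), and Amotl2, an angiomotin (936). The polarity genes were led by Lin7c (1499), Dlg1 (937), Pals1, listed as Mpp5 (741), Crb1 (464), a gene of the crumbs complex that is linked to inherited retinal dystrophy, and Pard6a (412). Besides Ctnnb1, Ctnna1 and Jup, the leading adherens junction genes were the actin binder Lima1 (1364) and Afdn, listed as Mllt4, which links nectins to actin (594).

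**Figure D3:**
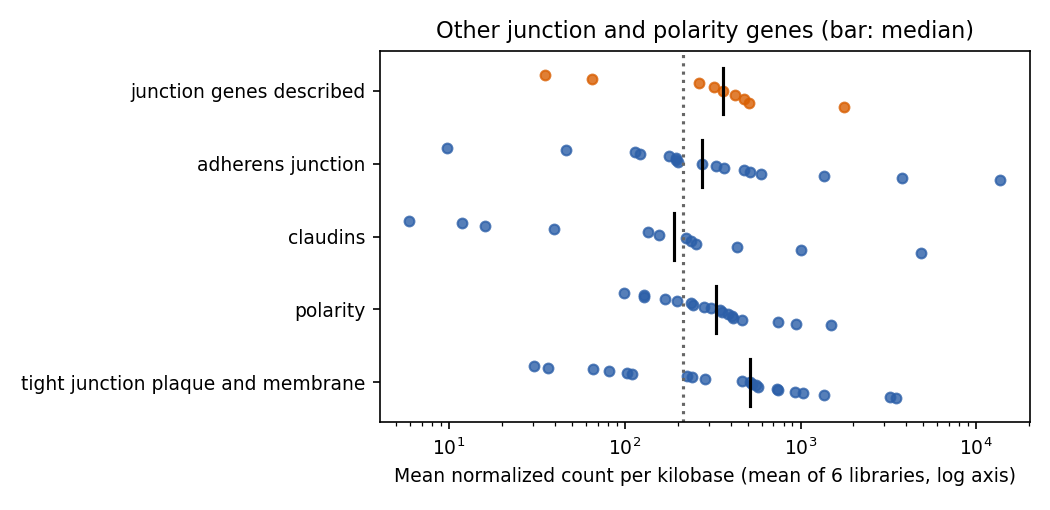
Mean normalized count per kilobase averaged over the 6 libraries, on a log axis, for the 9 junction genes and for 4 classes of other junction and polarity genes with a mean of at least 10. Each point is a gene, the black bar is the median of its class and the dotted line is the median of all genes with a mean of at least 10. The medians run from 190 for the other claudins to 513 for the tight junction plaque and membrane genes.

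The tissue label was checked against markers. The RPE marker list was high, with a median of 9523 per kilobase over 11 genes, led by Ttr, the transthyretin carrier of retinol and thyroid hormone, and 9 of the 11 stood above Cldn1. The chloride channel gene Best1, a defining RPE gene, was the lowest RPE marker, with a mean normalized count of 81.8. How completely the counting covered Best1 is not given in the sources used here, so its level is uncertain. The table also held the markers of other cells. The median per kilobase was 39758 for melanocyte genes, led by Dct, several of which the RPE shares as a pigmented tissue. It was 4401 for rod photoreceptors, 28023 for skeletal muscle, led by Mylpf, 4823 for macrophages, led by Lyz2, and 6960 for fibroblasts, led by Dcn. For choroidal endothelium it was 1244, led by Cldn5, and for Schwann cells 520, led by Pmp22. For red cells it was 54142, led by Hba-a2, over the 3 of 5 markers found in the table.

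Marker lists of other epithelia of the eye were measured as well. The surface epithelium list, of keratins and Trp63 that mark cornea and conjunctiva, had a median of 3352 per kilobase, with 6 of 6 genes at a mean of at least 10. Krt15 led it at 5804, and Krt12, a keratin of the corneal epithelium, stood at 4409, while Trp63 was at 28.1. The list for ciliary body and iris epithelium had a median of 1007, led by Atp1b1 at 5528. Which cells the transcripts of either list came from was not tested. Per the labels, cornea, iris and muscle were cut away during the dissection. Surface epithelia are known to use Cldn1, Cldn4, Cldn7, Cdh1 and Cdh3, and endothelium uses Cldn5, Cdh5 and Esam. The levels of the 9 junction genes are those of the whole scraped tissue, and the part that each cell type had in them was not tested. In such bulk samples fewer cells of a type and less RNA per cell cannot be told apart.

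**Figure D4:**
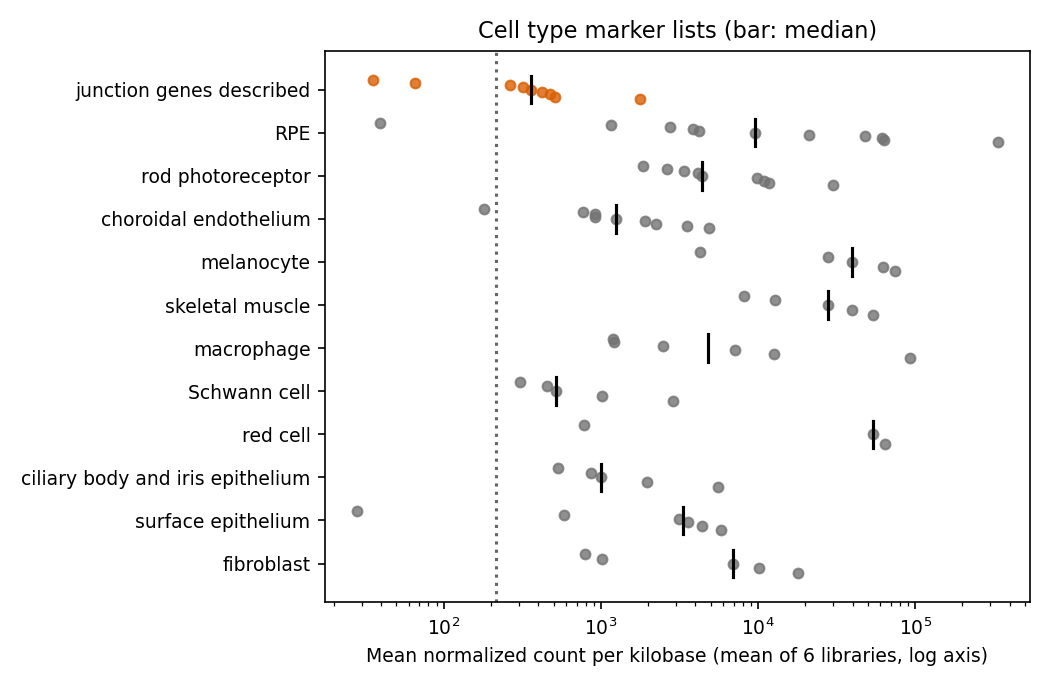
Mean normalized count per kilobase averaged over the 6 libraries, on a log axis, for the 9 junction genes and for 11 lists of cell type markers. Points are genes, black bars are medians and the dotted line is the median of all genes with a mean of at least 10. Every marker list has a higher median than the 361 of the junction genes, and the surface epithelium list lies at 3352.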

How the data were processed

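Per the labels and the study's methods, read pairs were trimmed with BBDuk, mapped with STAR to Ensembl GRCm38 transcripts, quantified with Sailfish, scaled to total counts and compared with DESeq2. The deposited signal used here is the authors' mean normalized count over 6 libraries. It was taken as not divided by gene length, which could not be tested. A further 5 columns hold the authors' comparison of young with aged tissue (log2 fold change, standard error, test statistic, and p before and after adjustment) and were not used. The design foresaw a test of age on values per library. None was run, as a mean over both ages gives no such values.

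The methods name TPM from Sailfish before scaling, which would already hold a division by length. The lowest means sat on a few values that many genes shared, as whole counts would give. Scaled TPM rounded to whole numbers would give such shared values too, so the steps cannot tell the 2 apart. If the values were already divided by length, the levels per kilobase divide by length again. The means sum to 40816668. Genes counted in 1 library showed 6 step sizes, between 0.157 and 0.174 per count, so the mean of Marveld2 stands for between 633 and 701 counts over all libraries. Depth per library is unknown, since the values had been scaled. Over the 6 step sizes together, 576 genes had 1 count in a single library and 1014 had 2 counts in a single library, matched to within 3e-06. Whether both ends of a read pair were counted is not given in the sources used here. A count may therefore not be a separate fragment. Intervals from counting were not computed.

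Gene models came from GENCODE M21, a later annotation of GRCm38, and 97.1% of genes with a mean of at least 10 had a length, by symbol or RefSeq synonym. The claudin signature was searched in the translated transcripts, and the search was widened to allow asparagine before the leucine after Cldn10 had been missed. Coding sequences were aligned with Biopython 1.88. Python 3.11.15, numpy 2.4.6, pandas 2.3.3 and matplotlib 3.10.9 were used, and the level and percentile steps were tested on simulated data. Alternatives were other minimum levels, backgrounds, lengths and totals.

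The 9 genes and the lists were chosen with earlier results of these data known. The rule named the 9 genes, every claudin with a mean of at least 10, the 5 most abundant genes per kilobase of each wider class and the most abundant gene of each marker list, of which 1 is not reported here. Genes with values outside it (Tjp3, Lsr, Ildr1, Ildr2, Marveld1, Marveld3, Cdh2, Cdh5, Ctnnd1, Best1, Krt12, Trp63, Gm12927, Ctnna2, Ctnna3 and the 4 claudins listed at 0) were chosen after their values were seen.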

Additional observations from a re-analysis of the deposited data

How the results depend on the processing

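No paired analysis was possible because only 1 mean per gene, over both ages, was used. For the same reason no replicate could be left out, no other scaling between libraries or filter within a fit could be tried, and no fit of age was run. All 9 junction genes stayed in at a minimum of 50 or 100 and with none, and of the 80 wider genes 69 became 64, 61 and 76. The fold between Cldn1 and Marveld2, the highest and lowest of the 9, was 50.2 per kilobase with the longest transcript, 52.8 and 46.7 with the 2 other transcript lengths, 66.9 with no length and 176 with the longest coding sequence. The summed share of the 9 genes was 435 per 1000000, and 445 and 488 without mitochondrially encoded or the 20 most abundant genes. The summed level of the 9 genes was 0.00768 times that of the RPE markers per kilobase, and 0.0172 times with no division by length. Ttr alone held 335233 of the 550250 per kilobase summed over the RPE markers, so the first ratio rests mostly on that gene. Ranks 2 to 7 of the 9 were unchanged with the union of exons and changed with the other lengths, while Cldn1, Cldn19 and Marveld2 kept ranks 1, 8 and 9. With only genes of at least 100 and a known length as background, Marveld2 stood above 3.49% of genes in place of 19.2%. Of 145 alternative values, 101 lay within 1.5 times of the reported one, or at the same rank, and 44 did not.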
